A study of Homo sapiens with 9 samples.

Results

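The description covers 3 RNA-seq libraries of LX-2 cells that had received a control siRNA in the presence of TGFβ1, and it follows the level of every gene in them. They were chosen as the 3 control siRNA columns of a deposited table of 9 libraries. All 9 came from LX-2, a human hepatic stellate line immortalised with SV40 large T antigen, and all were treated with TGFβ1 at 10 ng/ml. The 3 control libraries received a negative control siRNA, and the other 6 libraries received 25 nM of siRNA against LOX (3 libraries) or LOXL1 (3 libraries) for 48 h and are not analysed here. The treatment label of control library 3 names the control without the word siRNA, and its title places it in the group. The labels do not say whether the libraries came from separate cultures, so the spread between them may be technical. With no library without TGFβ1 and no second line in the group, the levels describe 1 treated cell line and cannot be divided into a part owed to the line and a part owed to TGFβ1 or to transfection.

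Hepatic stellate cells lie between the sinusoidal endothelium and the hepatocytes and store retinyl esters in the quiescent liver. On injury they turn into contractile, matrix-secreting myofibroblasts, and TGFβ is the best known driver of that change through the SMAD2 and SMAD3 transcription factors. Activated cells are known for collagens I and III, fibronectin, smooth muscle actin and TIMP1, and for losing their retinoid stores.

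The table held 17123 protein-coding genes with FPKM values, which are fragments scaled by transcript length and by the mapped fragments of the library and can therefore be set side by side between genes. In the control libraries they summed to 384881, 394842 and 387876. Depth was estimated from low values of genes with a single transcript whose FPKM times length was 30 to 80, taken as 1 fragment. Their median was 57.4 to 57.8, which would correspond to about 17300000 to 17400000 fragments per library and to about 17.3 fragments per kilobase at 1 FPKM. The median could not fall outside the window of 30 to 80, so these depths are rough and rest on that choice. Library 2 stood apart in the highest genes: 35 of the 50 highest had their highest value there, against 1 in library 1 and 14 in library 3. Among the genes averaging 1 FPKM or more, library 1 held the highest value of 28.7%, library 2 of 35.5% and library 3 of 35.8%. Across the 11715 genes with a mean of at least 1 FPKM, the deviation of library 2 from the mean ran against transcript length (Spearman's rho −0.27 across genes, which are not independent), while that of library 1 ran with it (0.34) and that of library 3 hardly moved with it (0.05). The part of this length trend in any level below was not tested.

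A mean of at least 1 FPKM was reached by 11715 genes, or 68.4% of the table, and 11555 genes reached it in each of the 3 libraries. This 68.4% is the share of all genes in the table against which the counts of list members below stand. List members without a row are left out of these counts. They were 300 of 392 olfactory receptors, 10 of 14 pancreas markers, 10 of 33 hepatocyte markers and 0 of 30 genes that modify and cross-link collagen. By bands of mean level, 22 genes stood at 1000 FPKM or more, 621 at 100 to under 1000, 6156 at 10 to under 100 and 4916 at 1 to under 10. A further 4672 genes lay above 0 and under 1 FPKM and together made up 0.275% ± 0.0047 of the summed FPKM (SD, n = 3), and 736 were listed at 0 in all 3 libraries. The pool was spread over many genes. The highest 10 genes held 5.37% ± 0.18 of the summed FPKM (SD, n = 3), the highest 100 held 21.6% ± 0.43, and 768 genes were needed to reach 50%.

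GAPDH, the glycolytic enzyme glyceraldehyde-3-phosphate dehydrogenase (GRCh38, chr12:6534405-6538375), was the most abundant transcript with 3431, 3723 and 3383 FPKM in libraries 1 to 3. TMSB10, which encodes the actin monomer-binding peptide thymosin beta 10, came next with 3239, 3676 and 3077 FPKM. GAPDH was the higher in each library, although the ranges of the 2 genes over the libraries overlapped. The ferritin light chain gene FTL averaged 2455 ± 144 FPKM (SD, n = 3) and the ferritin heavy chain gene FTH1 2000.2 ± 121; in every library FTL exceeded FTH1, by a ratio of 1.23 ± 0.020. The elongation factor gene EEF1A1 had 2062 ± 59.7 FPKM and ranked between them. ACTB (cytoplasmic beta actin, 1855 ± 93.1 FPKM), VIM (vimentin, 1480 ± 34.6), TUBA1B (an alpha tubulin, 1452 ± 67.9), GNAS (the stimulatory G protein alpha subunit, 1405 ± 28.3) and CFL1 (the actin-severing protein cofilin, 1371 ± 48.7) completed the highest 10. The roles that filled these places were glycolysis, iron storage, translation and the cytoskeleton, with GNAS apart.

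Ranks 11 to 50 were led by ribosomal protein genes, of which 22 stood in the highest 50, RPS2 first with 1362 ± 120 FPKM (SD, n = 3). Among the rest were MT2A, a metal-binding metallothionein, with 1276 ± 145 FPKM, the profilin gene PFN1 with 1313 ± 110, the ubiquitin gene UBB, the constitutive chaperone HSPA8 with 1036 ± 15.8, the prothymosin alpha gene PTMA with 984 ± 23.7 and B2M, the light chain of MHC class I, with 968 ± 13.8. The fibronectin gene FN1 stood at rank 41, and no collagen chain or proteoglycan gene was among the 50. Of the 49 neighbouring pairs in these ranks, 8 had ranges that did not overlap. The transcripts of the highest 50 were short, with a median of 1135 bases against 3226 for all genes at 1 FPKM or more, and 23 of them were under 1000 bases; this is the length range in which library 2 ran high. Ribosomal protein, actin, tubulin, ferritin, metallothionein and GAPDH genes have near-identical copies or pseudogenes elsewhere in the genome, so how the authors' counting divided their reads is uncertain, and the table places RPS2, RPS27 and RPS18 on other chromosomes than RefSeq does.

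**Figure D1:**
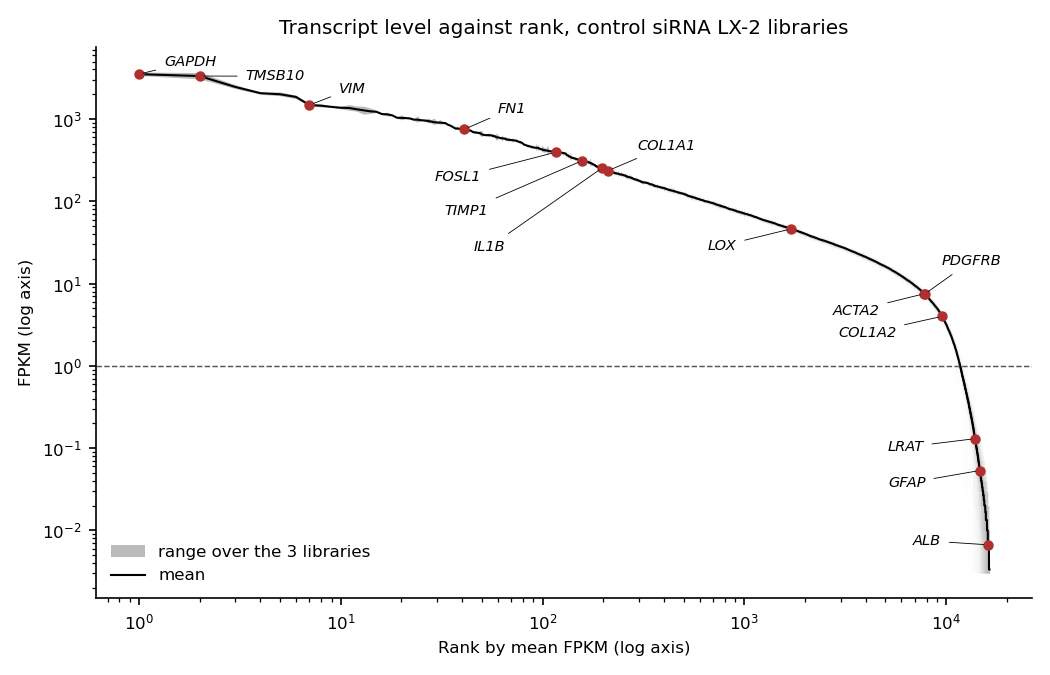
Mean FPKM of each gene (log axis, black line) against its rank by mean (log axis), with the range over the 3 control libraries in grey and 15 genes of the text marked in red; the dashed line is 1 FPKM. The curve falls gently from GAPDH at 3512 FPKM over most of the ranking and then drops steeply, with COL1A1 and TIMP1 in the upper part, ACTA2, PDGFRB and COL1A2 on the shoulder, and LRAT, GFAP and ALB on the steep part below 1 FPKM.

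The DNA just before the start site is shown for 8 of these genes, since the very abundant and the silent ends of the ranking differed from the middle in the TATA letters. Each line gives the 100 bases before the RefSeq start nearest to the start in the table, 5′ to 3′ on the gene's strand in build GRCh38.p14, with the letters TATAA in capitals where they lay 50 to 15 bases before the start. TMSB10 (chr2:84905556-84905655, plus strand), EEF1A1 (chr6:73521033-73521132, minus strand), MT2A (chr16:56608484-56608583, plus strand) and FN1 (chr2:215436069-215436168, minus strand) held them, 28 to 30 bases before the start. FTL (chr19:48965209-48965308, plus strand), VIM (chr10:17228141-17228240, plus strand), the cytokine gene IL1B (chr2:112836780-112836879, minus strand) and the silent hepatocyte gene ALB (chr4:73404187-73404286, plus strand) did not. Only the exact letters TATAA were searched. Variants, such as the cataaaa visible in FTL and IL1B, were not counted, so a gene without TATAA may still have a TATA-like stretch. The 8 genes were picked by hand, and their split does not estimate the share of all genes.
TMSB10: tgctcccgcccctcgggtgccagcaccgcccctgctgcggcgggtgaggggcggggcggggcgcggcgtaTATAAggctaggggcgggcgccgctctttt
EEF1A1: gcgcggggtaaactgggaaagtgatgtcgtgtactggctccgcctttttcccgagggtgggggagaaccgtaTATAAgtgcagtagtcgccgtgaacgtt
MT2A: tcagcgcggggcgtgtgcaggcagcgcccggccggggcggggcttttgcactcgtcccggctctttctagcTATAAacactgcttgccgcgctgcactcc
FN1: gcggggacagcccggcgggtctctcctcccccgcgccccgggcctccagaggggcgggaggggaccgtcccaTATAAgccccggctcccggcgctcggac
FTL: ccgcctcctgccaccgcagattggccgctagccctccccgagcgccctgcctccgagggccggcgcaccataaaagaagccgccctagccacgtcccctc
VIM: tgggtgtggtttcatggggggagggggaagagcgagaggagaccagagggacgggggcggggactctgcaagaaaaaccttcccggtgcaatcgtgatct
IL1B: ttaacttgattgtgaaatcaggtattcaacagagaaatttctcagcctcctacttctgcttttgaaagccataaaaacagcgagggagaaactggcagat
ALB: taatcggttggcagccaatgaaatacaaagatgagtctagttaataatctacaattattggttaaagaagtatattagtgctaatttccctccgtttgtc

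RefSeq promoter windows of 300 bases were matched for 13350 genes, 78.0% of the table, and TATAA on the gene's own strand was found in 4.53% of them in the stretch 50 to 15 bases before the start. By level, the share was 14.4% of the 506 promoters of genes listed at 0, 8.17% of the 3329 above 0 and under 1 FPKM, 2.78% of the 3890 at 1 to under 10 and 1.94% of the 5108 at 10 to under 100. It was 9.82% of the 499 promoters at 100 to under 1000 FPKM and 4 of 18 at 1000 or more. The letters were thus least frequent in the middle of the ranking. Base composition moved with the bands as well: the median GC content was 56.0% at 0 FPKM, 66.0% at 10 to under 100 and 62.7% at 1000 or more, and the median ratio of observed to expected CpG was 0.33, 0.87 and 0.87 in these bands. GGGCGG on either strand in the 250 bases before the start, the core of the GC box, was found in 30.4% of the promoters at 0 FPKM, 43.4% above 0 and under 1, 67.0% at 1 to under 10 and 70.8% at 10 to under 100. Its share was 71.9% at 100 to under 1000 and 15 of 18 at 1000 or more, against 61.4% of all. CCAAT on either strand in the same 250 bases was found in 36.2% of the promoters at 0 FPKM, 31.1% above 0 and under 1, 34.3% at 1 to under 10 and 36.1% at 10 to under 100. It was found in 42.1% at 100 to under 1000 and in 8 of 18 at 1000 or more, against 34.5% of all. A match of letters is a description and does not show that a factor binds.

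The collagen chain genes were unequal in level. Of 41 collagen chain genes with a row, 18 reached 1 FPKM and 4 reached 100, with a median of 0.46 FPKM against 5.84 for all genes in the table. COL1A1, the alpha 1 chain of type I collagen (chr17:50184096-50201639), had 234, 258 and 218 FPKM. COL1A2, which encodes the alpha 2 chain of the same trimer (chr7:94394561-94431232), had 4.12, 4.09 and 3.78 FPKM. The alpha 1 chain was thus 59.1 ± 3.4 times as abundant per length as its partner (ratio within each library, SD, n = 3). COL3A1, the fibrillar type III chain (chr2:188974373-189012746), stood at 8.32 ± 0.22 FPKM, 28.4 ± 1.6 times below COL1A1. Other families were closer in level. COL6A2 (194 ± 14.4 FPKM) and COL6A1 (130 ± 8.7), which form the beaded filaments of type VI collagen with COL6A3, exceeded COL6A3 by 12.6 ± 0.98 and 8.44 ± 0.53 times. The basement membrane chain COL4A2 had 147 ± 6.7 FPKM, 4.40 ± 0.032 times its partner COL4A1 at 33.4 ± 1.35. COL5A1 and COL5A2 lay at a ratio of 0.87 ± 0.095, and COL18A1, the source of endostatin, stood at 51.4 ± 1.95 FPKM. The 21 collagen genes above 0 and under 1 FPKM included the cartilage chain COL2A1 (0.18) and the basement membrane-zone chain COL15A1 (0.05), and COL19A1 and COL21A1 were listed at 0.

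Fibronectin dominated the glycoproteins. FN1 (chr2:215360440-215436070) had 758, 766 and 732 FPKM and supplied 30.8% of the summed FPKM of the 61 glycoprotein genes with a row, of which 41 reached 1 FPKM, with a median of 5.06 FPKM against 5.84 for all genes. TGFBI, a collagen-binding protein named for its induction by TGFβ, had 295, 316 and 299 FPKM. The CCN proteins CYR61 (CCN1, 286 ± 1.66 FPKM, SD, n = 3) and CTGF (CCN2, 111 ± 2.46) followed, both background targets of the YAP and TEAD factors. IGFBP7 (169 ± 3.31), SPARC (132 ± 1.99), AEBP1 (74.5 ± 5.8) and ECM1 (65.4 ± 4.3) were the others among the highest 8. Low levels were found for several proteins that fibroblasts of other kinds secrete: POSTN (periostin) stood at 0.12 FPKM, MFAP4 at 0.26, MGP at 0.027 and the elastin gene ELN at 0.0067, the last from 1 library above 0. Of 27 proteoglycan genes with a row, 14 reached 1 FPKM. SPOCK1, which encodes testican 1, led with 173, 169 and 166 FPKM, and SRGN, which encodes the intracellular granule proteoglycan serglycin, followed with 81.3 ± 3.78. The cell surface syndecans SDC4 (58.6 ± 0.37), SDC1 (48.5 ± 2.92) and SDC3 (26.6 ± 1.47) and the glypican GPC1 (56.2 ± 3.91) came next. Among the small leucine-rich proteoglycans, which bind collagen fibrils, BGN (biglycan) had 4.48 ± 0.44 FPKM (SD, n = 3), whereas LUM had 0.17, DCN 0.010 and ASPN 0.0067, and OMD was listed at 0.

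The machinery that folds and cross-links collagen was broadly present. Of 30 genes with a row, 24 reached 1 FPKM, against 68.4% of all genes, and 21 reached 10. The median was 18.7 FPKM against 5.84 for all genes. The prolyl isomerase PPIB (288 ± 15 FPKM, SD, n = 3), the prolyl hydroxylase subunit P4HB (259 ± 12.7) and the collagen chaperone SERPINH1 (112 ± 5.25) led, ahead of the isomerase FKBP10 (72.9 ± 3.08) and the lysyl hydroxylase PLOD3 (63.7 ± 3.36). Among the amine oxidases that start cross-linking, LOXL2 had 85.7, 94.6 and 84.7 FPKM, LOX (chr5:122063195-122078501) had 47.7, 42.8 and 48.1, and LOXL1 (chr15:73926458-73952141) had 12.2, 13.5 and 11.3. The 3 ranges did not overlap. LOX stood 3.78 ± 0.56 times above LOXL1 and LOXL2 1.92 ± 0.25 times above LOX, while LOXL4 was under 1 FPKM in the mean at 0.98. The gene with the lower level of the 2 that the other siRNAs of the study target was therefore LOXL1, at rank 6021 against rank 1704 for LOX.

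Matrix proteases and their inhibitors took a larger share of the pool than the collagens, 0.926% ± 0.018 against 0.248% ± 0.011 of the summed FPKM (SD, n = 3), although collagen transcripts are long and the shares weighted by transcript length were 0.903% ± 0.024 and 0.520% ± 0.027. The interstitial collagenase MMP1 (chr11:102789910-102798235) had 449, 444 and 453 FPKM, with a coefficient of variation of 1.00%. It exceeded the gelatinase MMP2 (22.2 ± 1.18 FPKM) 20.3 ± 1.3 times. The inhibitor TIMP1 (chrX:47582291-47586791) had 299, 342 and 292 FPKM, that is 0.695 ± 0.067 times MMP1, and TIMP2 had 157 ± 6.01. The inhibitors CST3 (212 ± 16.7) and TFPI2 (209 ± 6.72) and the lysosomal cathepsins CTSZ (195 ± 8.13) and CTSD (169 ± 11.9) were also among the highest 8. MMP7 (0.10 FPKM), MMP8 (0.040) and MMP10 (0.020) were near 0, and MMP13 and A2M were listed at 0.

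**Figure D2:**
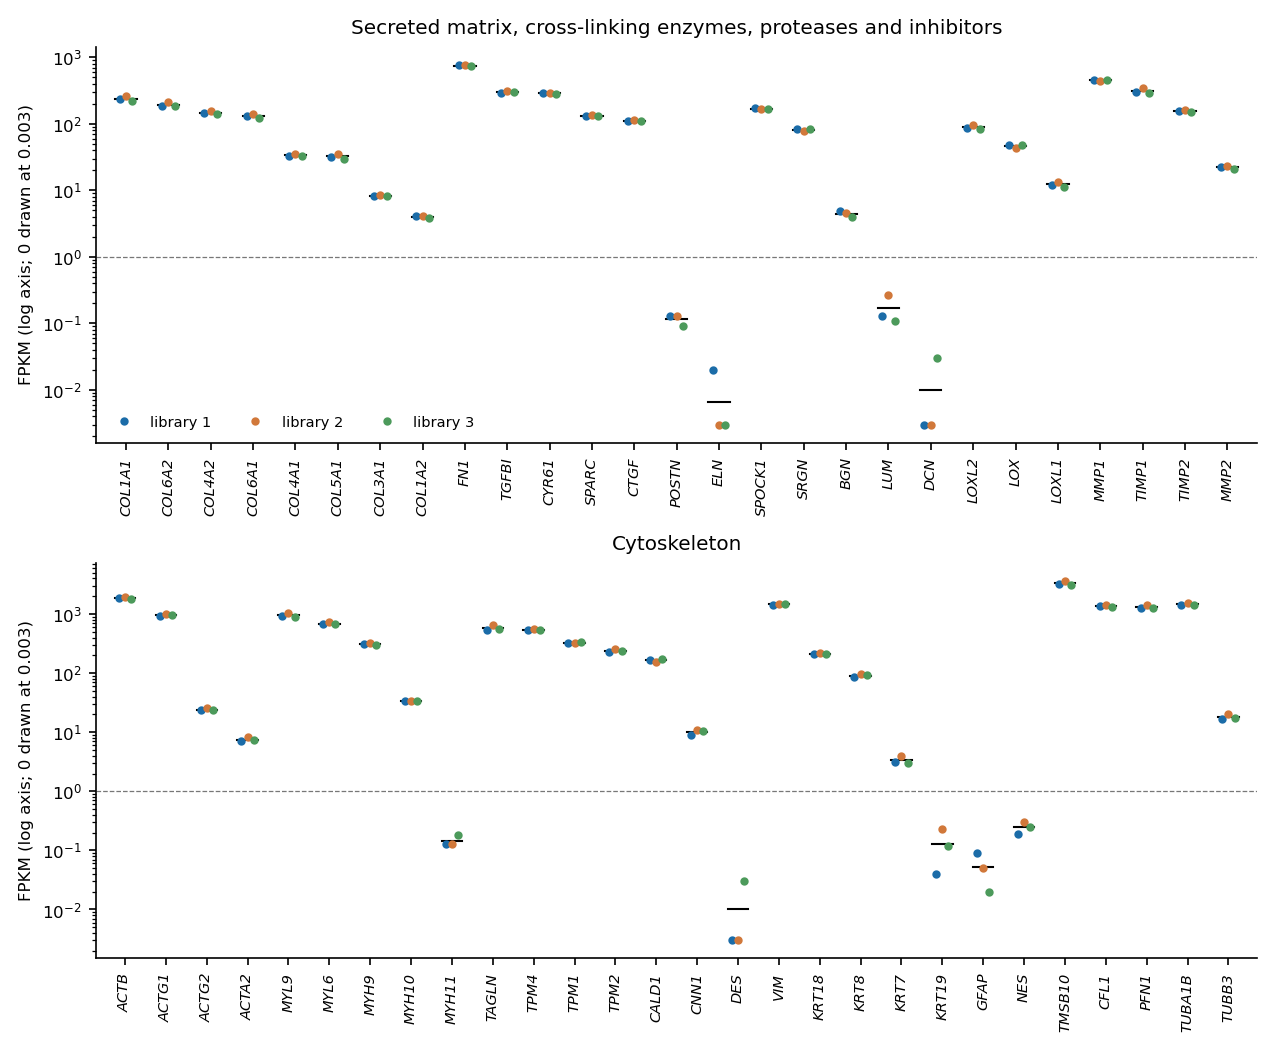
FPKM (log axis, 0 drawn at 0.003) of matrix genes in the upper panel and cytoskeletal genes in the lower panel, with 1 point for each of the 3 control libraries, a black bar for the mean and a dashed line at 1 FPKM. COL1A1 lies near 237 FPKM while COL1A2 lies near 4.0, and TAGLN and MYL9 lie near 584 and 947 FPKM while ACTA2 lies near 7.5; below 1 FPKM the libraries scatter over the widest range.

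Among genes known to respond to TGFβ, 33 of 39 reached 1 FPKM, against 68.4% of all genes. Besides FN1, TAGLN, TGFBI, COL1A1 and CTGF, the highest 8 held the focal adhesion protein TGFB1I1 (95.5 ± 7.0 FPKM, SD, n = 3) and the transcriptional repressor BHLHE40 (59.2 ± 3.28). The 6 members under 1 FPKM were PMEPA1 (0.92), MYOCD (0.30), CTHRC1 (0.24), NOX4 (0.23), POSTN (0.12) and COMP (0.0067). These are levels under treatment, and no response can be read from them. Within the SMAD, TEAD and SRF list, 30 of 33 reached 1 FPKM, led by the corepressor TGIF1 (51.9 ± 2.10), the coactivator YAP1 (47.3 ± 3.48) and TEAD4 (43.8 ± 3.86). SRF had 27.2 ± 1.36 FPKM and the receptor-activated SMAD3 25.4 ± 1.53, whereas the SRF coactivator of smooth muscle, MYOCD, stood at 0.30.

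Secreted signals were represented by 54 of 71 genes at 1 FPKM or more, against 68.4% of all genes. Their median was 11.4 FPKM against 5.84 for all genes. LGALS1, the beta-galactoside-binding lectin galectin 1, led with 614, 683 and 615 FPKM. GREM1, a secreted antagonist of bone morphogenetic proteins, had 385, 385 and 396 FPKM, and the growth factor gene HDGF 338 ± 8.45. IL1B, the inflammatory cytokine interleukin 1 beta, had 256, 273 and 238 FPKM, while its relative IL1A had 0.87, 0.91 and 1.04, a ratio of 274 ± 39. The heparin-binding growth factor MDK (212 ± 19.9), MIF (161 ± 11.7), STC2 (140 ± 2.96) and FSTL1 (134 ± 5.20) followed. TGFB1 itself had 100.2, 109.6 and 95.3 FPKM against 0.44 for TGFB3, a ratio of 237 ± 49. Members with little transcript included AREG (0.55 FPKM), HGF (0.21), IGF1 (0.11) and BMP2 (0.0067).

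Of 65 growth factor receptor genes, 45 reached 1 FPKM, a share near the 68.4% of all genes, and 2 reached 100, with a median of 5.32 FPKM against 5.84 for all genes. AXL, the receptor of GAS6, had 207, 215 and 196 FPKM, and the TGFβ co-receptor ENG 121 ± 4.36 (SD, n = 3). NOTCH2 (49.4 ± 1.48), TGFBR2 (43.9 ± 1.34), FGFR1 (43.0 ± 2.58), EPHA2 (36.3 ± 1.64), EGFR (30.7 ± 0.39) and NRP1 (30 ± 0.71) filled the highest 8. PDGFRB, the PDGF receptor by which stellate cells are commonly recognised, had 7.25, 7.75 and 7.33 FPKM, and PDGFRA had 0.26, 0.16 and 0.12. The endothelin receptors EDNRA (0.28) and EDNRB (0.043) and the angiotensin receptor AGTR1 (0.53) were under 1 FPKM. Of 46 adhesion receptor genes, 30 reached 1 FPKM, also a share near the 68.4% of all genes. The tetraspanin CD63 had 618 ± 21.3 FPKM, the integrin beta 1 gene ITGB1 392 ± 8.82, the alpha chain ITGA3 193 ± 7.95 and the hyaluronan receptor CD44 179 ± 5.94. The mesenchymal cadherin CDH2 had 95.2 ± 5.44 FPKM against 0.35 for the epithelial CDH1, a ratio of 273 ± 23.

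The contractile apparatus was abundant apart from several smooth muscle members. Of 40 genes, 32 reached 1 FPKM and 17 reached 100, with a median of 67.3 FPKM, and the list made up 2.49% ± 0.053 of the summed FPKM (SD, n = 3). MYL9, a regulatory light chain of non-muscle and smooth muscle myosin, had 908, 1029 and 902 FPKM. TAGLN, the actin-binding protein transgelin, had 544, 641 and 566 FPKM, and the tropomyosin gene TPM4 had 539 ± 11.6. ACTA2, the smooth muscle actin used as the standard sign of stellate cell activation (chr10:88935074-88991397), had 7.05, 8.22 and 7.27 FPKM, at rank 7782. TAGLN thus stood 77.6 ± 0.47 times, MYL9 126 ± 2.5 times and ACTB 248 ± 12.6 times above ACTA2 in the same libraries. The enteric smooth muscle actin ACTG2 was higher than ACTA2, at 24.2 ± 1.21 FPKM, and calponin, CNN1, stood at 10.1 ± 1.13. The ranges of ACTA2 and CNN1 did not overlap. The smooth muscle myosin heavy chain MYH11 had 0.15 FPKM and DES, the muscle intermediate filament protein desmin, 0.010, while the non-muscle heavy chain MYH9 had 312 ± 15.2. Actins share most of their sequence, so reads common to them may have been divided between ACTA2, ACTG2, ACTB and ACTG1 in a way the sources used here do not give.

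Actin regulators made up the largest share among the cytoskeletal lists, 3.13% ± 0.10 of the summed FPKM (SD, n = 3), with 47 of 48 genes at 1 FPKM or more. After TMSB10, CFL1 and PFN1, they were led by TMSB4X (551 ± 10.8 FPKM), the filamin FLNA (521 ± 20.2), the GTPase RHOA (464 ± 5.39), the actinin ACTN1 (418 ± 25.4) and moesin, MSN (384 ± 6.26). The villin gene VIL1, a marker of brush borders, was the 1 member under 1 FPKM, at 0.013. Tubulins followed TUBA1B with TUBB (724 ± 9.59), TUBB4B (567 ± 38.3), TUBB6 (447 ± 14.3) and TUBA1C (415 ± 10.7), and the microtubule destabiliser STMN1 had 306 ± 13.3. Of 30 intermediate filament genes with a row, 14 reached 1 FPKM, and VIM supplied 71.0% of their summed FPKM. The simple epithelial keratin genes KRT18 (207, 223 and 211 FPKM) and KRT8 (86.0, 95.8 and 91.4 FPKM) were well above 1, at a ratio of 2.35 ± 0.050, and the ductal keratin KRT19 had 0.04, 0.23 and 0.12. In the table the positions of KRT18 and KRT8 overlap by 996 bases on opposite strands, and the sources used here do not say whether counting used strand. GFAP, the glial filament protein also used for quiescent stellate cells, had 0.053 FPKM and the nestin gene NES 0.25.

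Glycolysis and the list of pentose phosphate and redox defence held like shares of the summed FPKM. Weighted by transcript length, their shares differed, at 1.22% ± 0.059 and 0.771% ± 0.031 (SD, n = 3). Of 28 glycolytic genes with a row, 24 reached 1 FPKM, and they held 1.70% ± 0.059 of the summed FPKM (SD, n = 3), of which GAPDH supplied 53.1%. TPI1 (678 ± 15.6 FPKM), PKM (651 ± 63.8), ALDOA (403 ± 26.4) and ENO1 (321 ± 16.9) came next. The pentose phosphate and redox list held 1.72% ± 0.058, from a summed level of 6683 ± 312 FPKM. FTL supplied 36.7% of this level, and the other ferritin gene, FTH1, added 2000 FPKM. LDHB, the heart-type lactate dehydrogenase chain, exceeded LDHA, the muscle-type chain, by 1.61 ± 0.12 times, with 245, 234 and 260 against 152, 158 and 151 FPKM. Oxidative phosphorylation genes of the nucleus were expressed as a block, 49 of 50 at 1 FPKM or more with a median of 65.8, led by COX6A1 (330 ± 20.2). The tricarboxylic acid cycle genes reached 1 FPKM in 28 of 29 cases, led by MDH2 (133 ± 8.38), and the gluconeogenic gene PCK1 was listed at 0. Mitochondrially encoded genes are not analysed here.

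The highest lipid genes were those of synthesis, and several of lipid storage and uptake were under 1 FPKM. Of 45 fatty acid genes with a row, 38 reached 1 FPKM. The desaturases FADS2 (195 ± 8.54 FPKM, SD, n = 3), SCD (167 ± 1.94) and FADS1 (94.0 ± 2.51) and the citrate lyase gene ACLY (99.1 ± 2.17) led, while PLIN1 (0.23), PLIN4 (0.12), PLIN5 (0.33), CD36 (0.18) and LPL (0.25) were under 1. Of 14 adipocyte markers with a row, 3 reached 1 FPKM, and DGAT2 supplied 38.6% of their summed level of 20.5 ± 1.13 FPKM. Cholesterol synthesis was expressed at 29 of 30 genes, with the transporter NPC2 (142 ± 1.07) and the demethylase CYP51A1 (134 ± 8.34) near its upper end. The retinoid list, which covers the pathway that defines the quiescent stellate cell, was low: 12 of 30 genes with a row reached 1 FPKM, with a median of 0.39 FPKM, and the summed level was 163 ± 0.51 FPKM. RDH11, a retinal reductase, had 75.6, 71.5 and 78.6 FPKM and supplied 46.2% of it. The nuclear receptors RARA (22.1 ± 2.01), RXRB (17.2 ± 0.34), RARG (11.0 ± 0.76) and RXRA (10.4 ± 0.71) followed. LRAT, the enzyme that esterifies retinol for storage, had 0.04, 0.19 and 0.16 FPKM, the retinol uptake receptor STRA6 0.073, and RBP4, CES1 and RXRG were listed at 0.

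Of 48 genes of amino acid, one-carbon and nucleotide metabolism with a row, 44 reached 1 FPKM, with a median of 36.3 FPKM. SHMT2 (258 ± 3.31 FPKM, SD, n = 3), TYMS (232 ± 0.13), PHGDH (212 ± 6.82), SLC3A2 (169 ± 6.04), PSAT1 (150 ± 5.75), SLC1A5 (146 ± 2.73) and ASNS (138 ± 7.98) formed the upper end of the list, and the urea cycle gene ARG1 stood at 0.040. After the ferritins, the redox list was led by GSTP1 (299 ± 9.72), TXN (207 ± 9.67) and GPX1 (197 ± 8.52). Xenobiotic and bile acid genes were mostly silent, with 7 of 30 at 1 FPKM or more; AKR1B1 (71.7 ± 2.21) led, CYP3A4 and CYP2E1 each had 0.057, and CYP7A1 had 0.0067.

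Ribosomal proteins held the largest share of all lists, 10.9% ± 0.18 of the summed FPKM (SD, n = 3) from 84 genes, of which 82 reached 1 FPKM; RPL3L, which is known from muscle, had 0.037 FPKM and the testis gene RPL10L was listed at 0. Weighted by transcript length, the share was 3.84% ± 0.10. Translation factors held 2.39% ± 0.025, with EEF1G (898 ± 21.3 FPKM) and RACK1 (637 ± 16.5) after EEF1A1. Chaperones held 2.06% ± 0.018, with CALR (555 ± 18.8) and FKBP1A (480 ± 11.3) below UBB and HSPA8. All 46 cell cycle genes reached 1 FPKM, the lists' only complete case among those of function. The ubiquitin-conjugating enzyme UBE2C had 281 ± 9.23 FPKM, the cyclin CCND1 227 ± 2.43, the replication clamp PCNA 214 ± 7.28, the spindle factor TPX2 212 ± 3.40 and the cyclin CCNB1 132 ± 4.53. Annexins were led by ANXA2 (852 ± 6.76) and ANXA5 (632 ± 34.4), and S100 proteins by S100A11 (599 ± 66.7), with S100A4 at 1.02 ± 0.18 and S100B listed at 0.

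**Figure D3:**
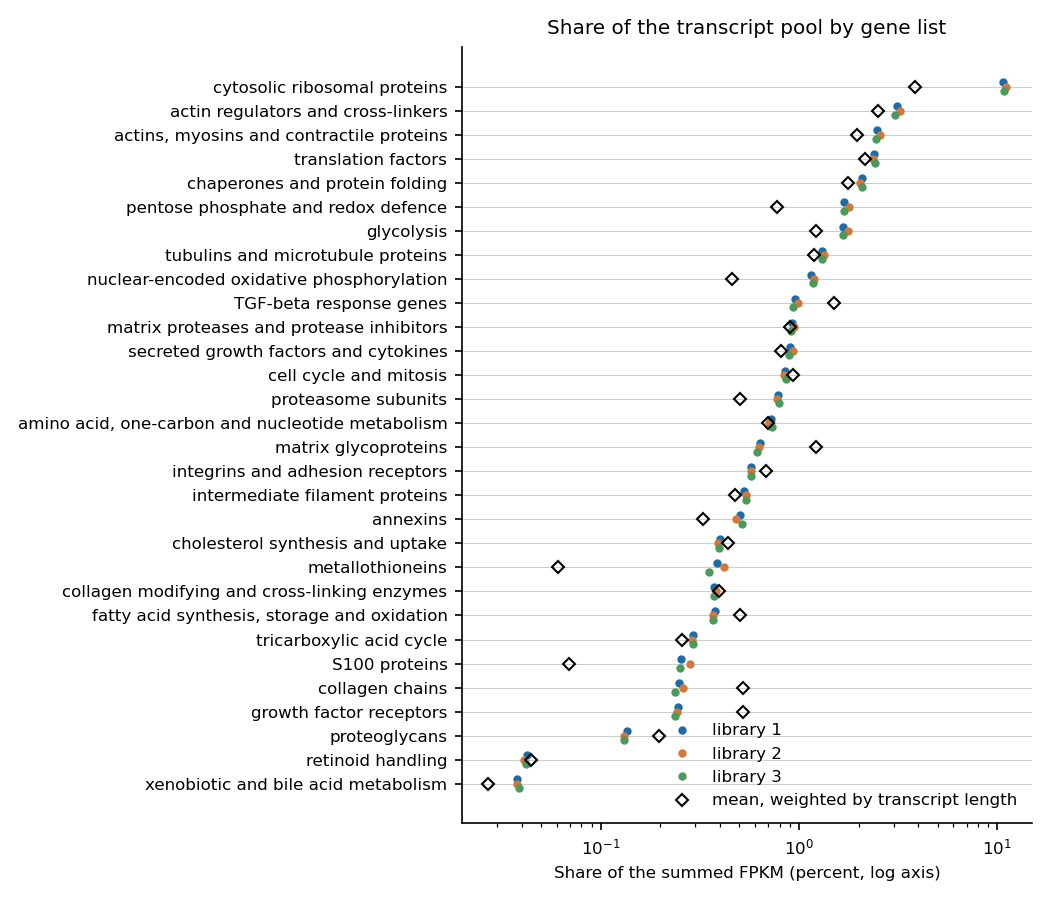
Share of the summed FPKM (percent, log axis) held by each functional gene list, with 1 coloured point for each of the 3 control libraries and an open diamond for the mean share when each gene is weighted by transcript length. Ribosomal protein genes lead with 10.9% and fall to 3.84% under length weighting, while collagen chains move from 0.248% to 0.520%; the 3 libraries lie close together, with the widest spread in the short metallothionein and S100 transcripts.

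Transcription factor lists held 623 symbols, of which 577 had a row, 355 (61.5%) reached 1 FPKM and 9 reached 100, with a median of 3.15 FPKM; together they made up 1.99% ± 0.030 of the summed FPKM (SD, n = 3). HMGA1, an AT-hook chromatin protein, was the highest with 543, 594 and 524 FPKM. ATF4, the effector of the integrated stress response, had 396, 413 and 407 FPKM, and FOSL1, the AP-1 subunit FRA1, had 382, 427 and 373. The ranges of ATF4 and FOSL1 overlapped and both lay below HMGA1. The proliferation factor FOXM1 followed with 268 ± 6.63 FPKM, then the hypoxia factors EPAS1 (154 ± 5.82) and HIF1A (145 ± 4.27), CEBPB (125 ± 0.93), the NF-κB subunit RELA (108 ± 7.95) and MYBL2 (107 ± 6.26). Places 10 to 20 included NFE2L1, JUN, CREB3L1, MAZ, USF2, TFDP1, MYC, JUND, XBP1 and BHLHE40, between 90.2 and 59.2 FPKM. Places 21 to 30 were held by ETS1, NR2F2, MAX, DDIT3, SREBF2, STAT6, FOXD1, E2F1, TGIF1 and HOXB2, between 57.2 and 49.9 FPKM.

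Within families the levels were unequal. FOSL1 exceeded FOS, the immediate early member, 457 ± 74 times, FOS standing at 0.95, 0.79 and 0.87 FPKM. The mesenchymal bHLH factor TWIST2 had 40.5, 42.0 and 38.3 FPKM, 6.97 ± 1.14 times TWIST1. Among nuclear receptors, 22 of 46 with a row reached 1 FPKM, led by NR2F2 (56.6 ± 0.62), PPARD (36.9 ± 1.21) and NR1H2 (32.7 ± 2.15), while PPARG stood at 0.29, ESR1 at 0.087 and the hepatocyte factor HNF4A at 0.0033. SNAI2, a zinc finger repressor of epithelial genes, had 38.5 ± 1.5 FPKM and KLF6 37.7 ± 0.84. The homeobox genes GBX2 (14.3 ± 0.51), HLX (14.4 ± 0.53) and MEIS3 (34.0 ± 1.96) were also expressed, where 43 of 98 homeobox genes outside the HOX clusters reached 1 FPKM. The neural bHLH-PAS gene SIM2 had 26.5 ± 1.71 FPKM. Its deposited positions overlap those of LOC102724652 on the same strand and of ICOSLG on the other, each by 50785 bases. How reads were divided there is not known.

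HOX genes, which record the position of a cell's origin along the body axis, were uneven by cluster. Of 37 with a row, 26 reached 1 FPKM, a share near the 68.4% of all genes. The HOXB genes summed to 161, 176 and 163 FPKM, the HOXC genes to 50.4, 56.6 and 50.5, the HOXA genes to 14, 14.9 and 12.6 and the HOXD genes to 11.6, 10.2 and 12.5. The HOXB and HOXC ranges lay apart from each other and from the rest, while those of HOXA and HOXD lay next to each other without overlap. HOXB2 was highest with 47.6, 53.2 and 48.95 FPKM, then HOXB7 (34.4 ± 2.74), HOXB4 (22.3 ± 1.86) and HOXB3 (21.3 ± 0.21), with HOXB8 at 0.84. In HOXC, HOXC4 (13.9 ± 1.16) and HOXC6 (12.4 ± 0.78) led, and HOXA9 stood at 0.010.

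**Figure D4:**
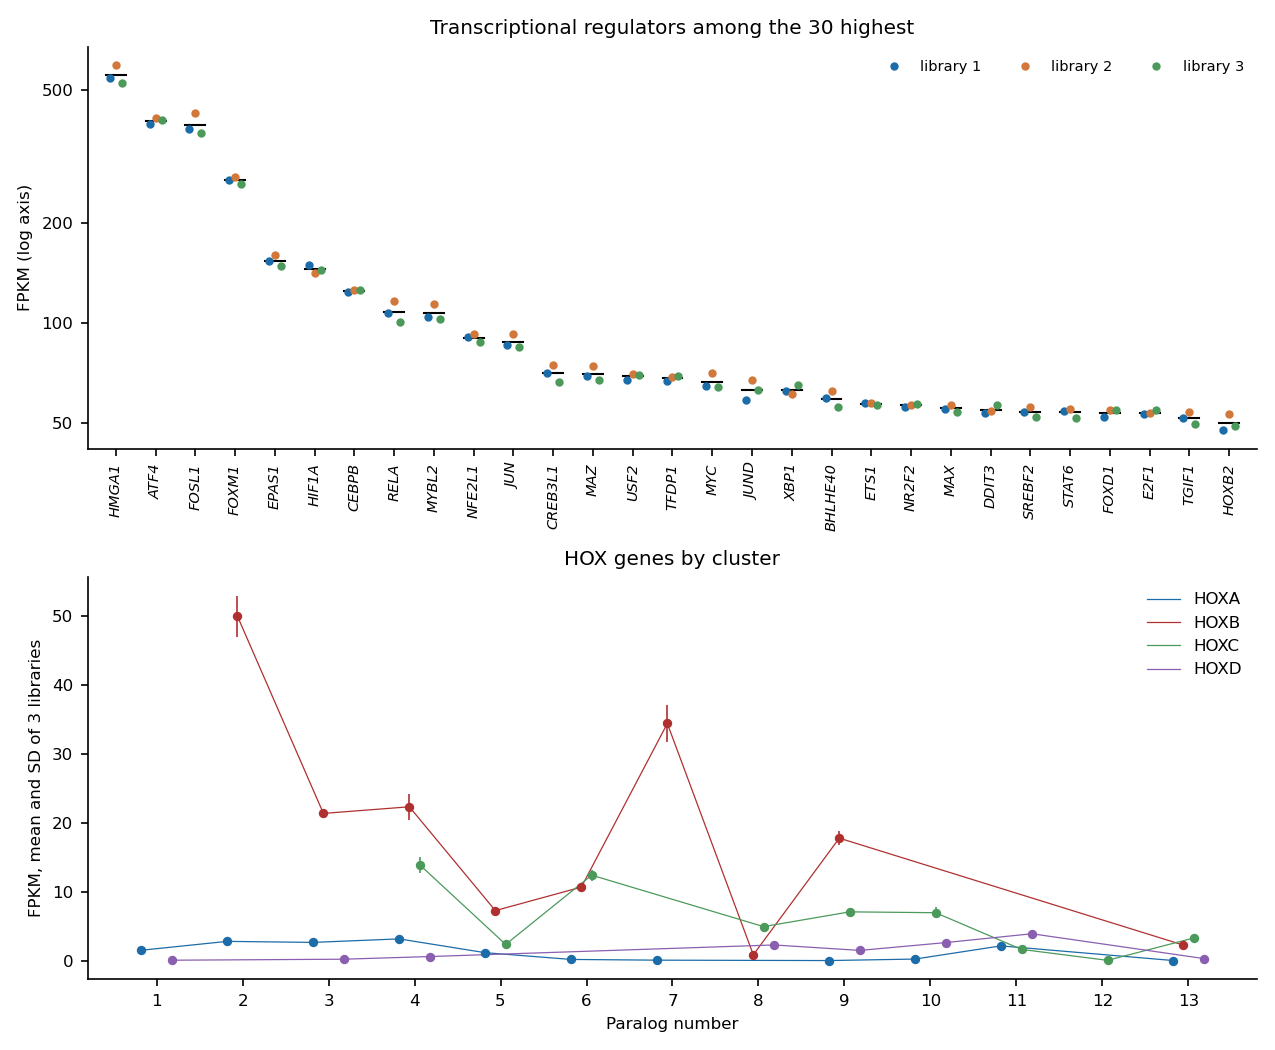
Upper panel: FPKM (log axis) of transcriptional regulators among the 30 highest, 1 point for each of the 3 control libraries and a bar for the mean, from HMGA1 at 553 to HOXB2 at 49.9 FPKM. Lower panel: mean FPKM and SD of 3 libraries for each HOX gene against its paralog number, with HOXB2 and HOXB7 standing above the other genes.

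The label of a hepatic stellate line was set against marker lists. Of 28 markers of activated stellate cells or myofibroblasts, 25 reached 1 FPKM, against 68.4% of all genes, and 19 reached 10, with a median of 46.6 FPKM. The exceptions at 1 FPKM were CTHRC1, PDGFRA (0.18) and POSTN. The standard activation markers ACTA2, COL1A2 and COL3A1 were among those that did not reach 10. Of 32 general stellate markers, 10 reached 1 FPKM, with a median of 0.30, and VIM alone supplied 90.8% of the list's summed level of 1629 ± 37.9 FPKM (SD, n = 3). Besides VIM, they were ECM1, ALCAM (16.6 ± 1.27), the developmental factors FOXF1 (15.3, 16.8 and 15.3 FPKM), LHX2 (14.3, 14.3 and 13.6) and GATA4 (9.76 ± 0.54), NTM (12.2 ± 0.49), PDGFRB, NGFR (1.98 ± 0.27) and PTH1R (1.62 ± 0.13). The 22 markers under 1 FPKM included HAND2 (0.33 FPKM), RGS5 (0.31), RELN (0.28), CYGB (0.070), COLEC10 (0.013) and DES (0.010). Most markers of the activated list were thus at 1 FPKM or more, some of them at low levels, whereas 22 of the 32 general markers were under 1 FPKM. Among these 22 were the storage enzyme LRAT, the pericyte gene RGS5 and DES. Of the 15 smooth muscle or pericyte markers with a row, 8 reached 1 FPKM and 5 reached 10, with a median of 1.25 FPKM, led by SMTN (64.4 ± 4.16). Of 16 surface antigens of cultured mesenchymal cells with a row, 10 reached 1 FPKM, among them NT5E (116 ± 3.12) and THY1 (79.6 ± 5.13), while the haematopoietic antigens CD34 (0.78) and PTPRC (0.94) did not.

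Markers of neighbouring liver cells were mostly near 0. In bulk RNA, fewer cells of a type and less RNA per cell cannot be told apart. Of 23 hepatocyte markers with a row, 2 reached 1 FPKM, and their summed level was 17.2 ± 0.23 FPKM (SD, n = 3). CPS1, the first enzyme of the urea cycle, had 11.8, 10.9 and 11.2 FPKM and supplied 65.6% of it, and ASGR1, an asialoglycoprotein receptor chain, had 2.34 ± 0.39. ALB (0.0067), its fetal counterpart AFP (0.010) and HNF4A were near 0, and TF and PCK1 were listed at 0. Cholangiocyte markers reached 1 FPKM in 5 of 15 cases, led by the anion exchanger SLC4A2 (54.8 ± 2.34) and the annexin ANXA4 (20.5 ± 1.26), with EPCAM at 0.010. Endothelial markers reached it in 8 of 23 cases; ENG, which is also a TGFβ co-receptor of mesenchymal cells, made up 67.9% of their sum, EGFL7 had 22.2 ± 1.44 FPKM, FLT1 13.9 ± 0.66 and TIE1 10.6 ± 0.99, while PECAM1 had 0.36, VWF 0.023 and CDH5 and LYVE1 were listed at 0. Macrophage markers reached it in 5 of 17 cases: LAPTM5 had 48.4, 51.6 and 47.2 FPKM and CD68 42.3 ± 3.16, both lysosomal proteins, while CSF1R had 0.16, CD163 0.0033 and MARCO 0.010. The cholangiocyte list also held SOX9, with 12.1 ± 0.70 FPKM. Each of these lists thus held markers at or near 0 beside markers that were expressed.

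The 18 lists of cell types outside the mesenchymal ones, those of the liver included, held 268 markers with a row that no mesenchymal list shares. Mesothelium was counted as mesenchymal and shared markers were left out. The 268 therefore lack KRT18 (214 FPKM) and KRT8 (91.1) of the epithelial list and ENG of the endothelial list. Of the 268, 48 reached 1 FPKM, 15 reached 10, and 33 were listed at 0, with a median of 0.087 FPKM against 5.84 for all genes. The 15 were SLC4A2, LAPTM5, TNNT1, IL7R, CD68, PMP22, CNP, EGFL7, ANXA4, DSG2, TUBB3, FLT1, SOX9, CPS1 and TIE1. IL7R, the interleukin 7 receptor chain of lymphocytes, had 46.6, 44.7 and 46.9 FPKM, against values listed at 0 for CD3E and LCK. TNNT1, slow skeletal troponin T, had 44.3, 51.7 and 49.4 FPKM, against 0.013 for the skeletal actin ACTA1 and a value listed at 0 for MYH6. TUBB3, the neuronal tubulin, had 17.0, 20.4 and 17.2 FPKM, against 0.033 for RBFOX3. No marker of B or plasma cells (0 of 12 with a row) or pancreas (0 of 4) reached 1 FPKM. Of 12 mesothelial markers with a row, 6 reached 1 FPKM, led by KRT18, PODXL (176 ± 4.30 FPKM, SD, n = 3) and KRT8. WT1 had 3.25 ± 0.19 and MSLN 0.090. Of 14 portal fibroblast markers with a row, 7 reached 1 FPKM and 5 reached 10, led by GREM1 and THY1. FBLN2 (13.8) and FBLN1 (11.3) were among the 5, while COL15A1 and ELN were near 0.

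**Figure D5:**
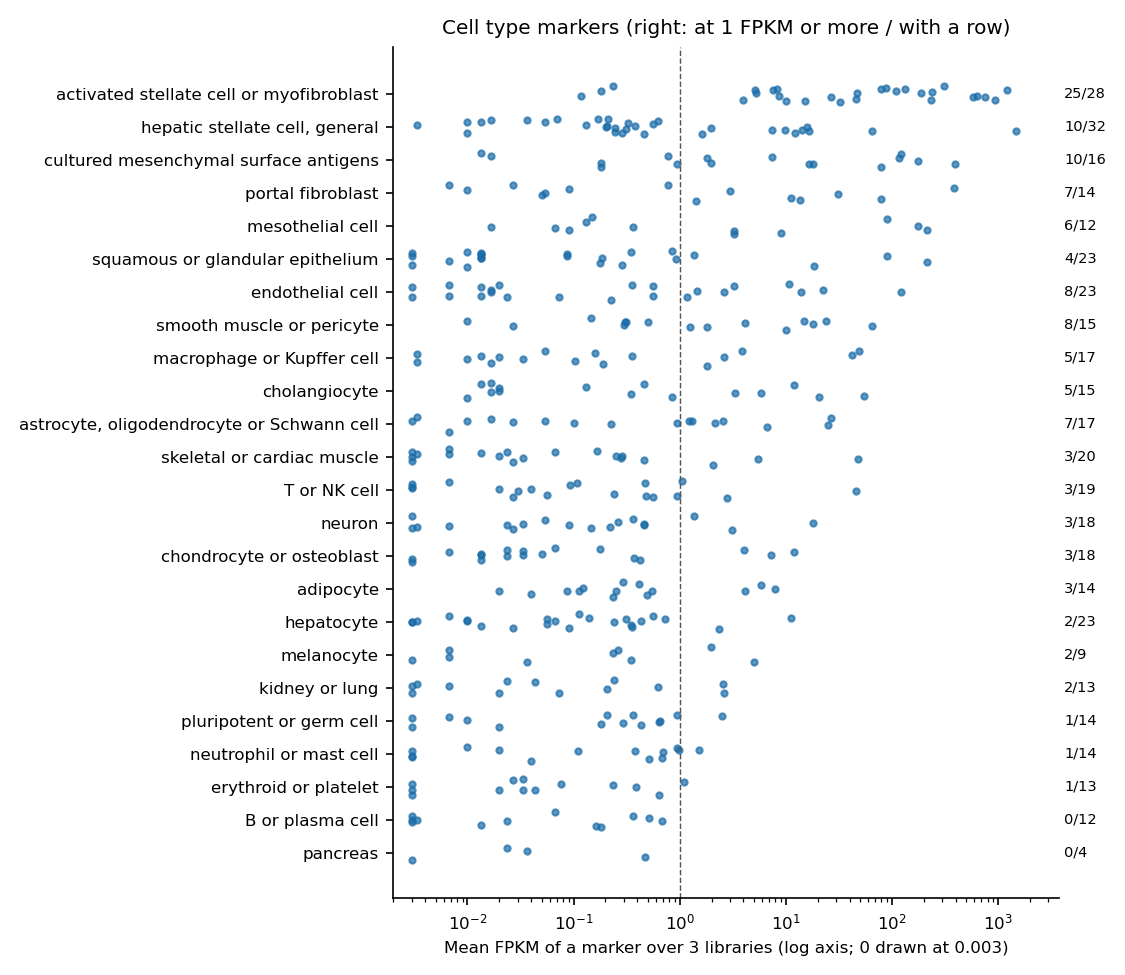
Mean FPKM over the 3 control libraries (log axis, 0 drawn at 0.003) of each marker with a row, 1 point a gene, in 24 cell type lists ordered by summed level; the dashed line is 1 FPKM and the numbers at the right give markers at 1 FPKM or more over markers with a row. The activated stellate list has 25 of 28 markers to the right of the line, the general stellate list 10 of 32 and the hepatocyte list 2 of 23.

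The libraries resembled each other closely. Pearson's r of log2(FPKM + 1) between pairs was 0.996 to 0.997 across the 11715 genes, and 0.427% to 0.666% of these genes had equal values to 2 decimals in a pair, so no pair was a copy. The median coefficient of variation was 5.47%, with quartiles of 3.35% and 8.21%, and 84.5% of these genes lay under 10%. It was 43.3% for genes above 0 and under 1 FPKM, 7.20% at 1 to under 10, 4.64% at 10 to under 100, 3.83% at 100 to under 1000 and 4.84% at 1000 or more. Between the 2 libraries left without library 2 the median was 3.20%, against 5.49% without library 1 and 4.85% without library 3. Among genes at 5 FPKM or more, TYMS (231.74, 231.62 and 231.87 FPKM), HMCES, LURAP1L, BRD8, FAM168A and ZMYND11 varied least, at 0.0540% to 0.151%. PTCD1 (7.89, 6.18 and 3.22 FPKM) and TMEM183B (4.19, 8.95 and 5.21 FPKM) varied most, at 41.0% each, ahead of NUDT6 (34.0%), SULT1A4 (29.7%), EXOSC4, ZNF124, HIST3H2A, ARHGAP11B, ST20, HIST2H2BF, AP3S2 and ZNF226, the last at 24.7%. PTCD1, AP3S2 and ST20 have read-through partners in the table.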

How the data were processed

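Total RNA of LX-2 cells was sequenced on a BGISEQ-500 per the labels' protocols. The deposited FPKM values, 1 per gene and library, were made by the authors; per the submitters' processing notes TopHat2 2.0.10 and hg19 were used, and no source used here names the tool behind the FPKM values. The deposited positions follow GRCh38: of 17086 gene IDs matched to RefSeq, 91.3% lay within 5000 bases of GRCh38.p14. Transcript lengths are the longest transcript's, per the file headers.

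For the 3 control libraries, the mean, SD, coefficient of variation and rank of each gene were computed (Python 3.11.15), with 1 FPKM as the level of detection and a pseudocount of 1 on the log2 scale. There was no contrast, so no test was run, and no column of an unmapped sample was present. Shares are of the summed FPKM, averaged over libraries. The steps were tested on simulated data.

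Named genes are ranks 1 to 50, the 8 highest of each list and members under 1 FPKM, the 30 highest transcription factors, and the 12 most and 6 least variable genes at 5 FPKM or more. ACTA2, BGN, COL1A2, COL3A1, COL6A3, MMP2, TGFB1, MYH9, TWIST1, TWIST2, SIM2 and GBX2 fall outside it and were named after their values were seen. Some genes that the rule names are not reported here. The members and lists were chosen with earlier results of these data known.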

Additional observations from a re-analysis of the deposited data

How the results depend on the processing

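No paired analysis was possible because 1 group is described and nothing is compared between groups. The count of 11715 genes at 1 FPKM or more was 12508 at 0.5 FPKM, 9002 at 5 FPKM, 11555 with 1 FPKM in each library and 11713 after median-ratio scaling, and 11712 to 11717 when each library was left out. The share of the 100 highest genes, 21.6%, was 14.7% when FPKM was multiplied by transcript length and 19.6% without ribosomal protein genes, where other genes make up the 100; it was 21.7% over genes at 1 FPKM or more and 21.4% to 21.7% with each library left out. The median coefficient of variation, 5.47%, was 7.22% without a filter, where genes under 1 FPKM enter, 4.88% at 5 FPKM or more, 5.45% after median-ratio scaling, and 3.20% to 5.49% with each library left out, lowest without library 2. Length weighting moved the share of all 64 gene lists by over 1 SD, 32 of them upward. Median-ratio scaling moved 9 of 2052 gene means by over 1 SD, and none by more than 0.665%. Of the highest 50 genes, 49 or 50 remained with each library left out, GAPDH first each time. At the roughly estimated 17300000 fragments a library, levels under 0.1 FPKM would rest on few fragments, and their order is not resolved.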

Other observations

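For 2 of the most variable genes, a read-through gene that includes them is listed separately, and the sum of the pair varied less than either. PTCD1 had a coefficient of variation of 41.0% and ATP5J2-PTCD1 72.5%, while their sum was 9.27, 8.82 and 9.33 FPKM, with 3.05%. AP3S2 had 24.8% and C15orf38-AP3S2 21.1%, while their sum was 11.3, 10.7 and 10.5 FPKM, with 3.5%. For ST20 the sum with ST20-MTHFS varied by 32.5%, more than the 25.1% of ST20 itself. These pairs were picked after their values were seen, and the division of reads between such genes was not tested.

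Olfactory receptor genes, which serve as a view of transcripts with no known use in these cells, had 92 members with a row. Of these, 5 reached 1 FPKM, 34 were listed at 0, and the median was 0.020 FPKM, against 0.087 for the markers of other lineages. Their summed level was 26.5 ± 0.087 FPKM (SD, n = 3), led by OR7E24 with 27.3% of it.

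The proteasome list was expressed almost whole, with 46 of 47 genes with a row at 1 FPKM or more and a median of 54.8 FPKM, led by PSMA7 (198 ± 13.9 FPKM) and PSMB7 (190 ± 4.52); PSMB11, the thymus-specific subunit, was listed at 0. Among metallothioneins, MT2A supplied 84.8% of the summed level, MT1E had 149 ± 3.65 FPKM, MT1X 42.4 ± 2.33 and MT1F 29.1 ± 0.61, while MT1G (0.67), MT1A (0.55) and MT1H (0.16) were under 1.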
